A study of Homo sapiens with 6 samples.

Results

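The genes described here are 10 components of the Hippo pathway, found by gene symbol among the 17631 genes measured in each library: the transcriptional co-activators YAP1 and WWTR1 (the gene of TAZ), the DNA-binding factors TEAD1, TEAD2, TEAD3 and TEAD4, the kinases LATS1 and LATS2, and the scaffold genes NF2 and SAV1. RNA-seq was performed on MDA-MB-231, a human cell line established from a triple-negative breast cancer, in 3 libraries from vehicle-treated cells and 3 from cells exposed for 24 h to 30 µM PDBAG1, a peptide derived from GPD1 and joined to a cell-penetrating sequence. All 6 libraries came from this unmodified line, although the labels also call the source breast cancer tissue, and nothing in the sources used here says whether the libraries of a group came from separate cultures, so the p values measure only the spread between these libraries. The unit is TPM (transcript abundance scaled to transcript length and to the library total), which keeps no record of sequencing depth, so counting error is unknown.

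Between 12392 and 12611 genes per library reached 1 TPM, and no library stood apart from its group. The mesenchymal marker VIM was at 4270 TPM in the vehicle group, while the epithelial markers EPCAM and CDH1 were at 5.14 and 0.567 TPM and the hormone receptor genes ESR1 and PGR at 2.26 and 0.0267 TPM. Of the other luminal and epithelial markers, ERBB2 was at 24.7 TPM, GATA3 at 3.59 TPM and FOXA1 at 0.653 TPM in the vehicle group. Of the fibroblast, leukocyte, endothelial and adipocyte markers in the files, none exceeded 10 TPM in a library. The summed endothelial markers were at 4.11 to 4.40 TPM in the vehicle libraries and 8.42 to 9.60 TPM in the PDBAG1 libraries, nearly all of it PECAM1, with VWF at or below 0.07 TPM in both group means. The summed fibroblast markers were at 5.53 to 5.96 TPM with vehicle and at 6.78 to 7.51 TPM with PDBAG1. The summed mesenchymal markers of the line were at 5765 to 5957 TPM and 7558 to 7657 TPM. Most of this sum was VIM, at 5877 TPM in the PDBAG1 group. CD44 and MSN also rose, with log2 fold changes of 0.59 and 0.45, whereas AXL and CAV1 fell, with -0.26 and -0.30 (limma adjusted p under 0.05 for each). The part of these shifts in the results was not tested. Only mRNA was measured in bulk, so a smaller number of cells with a given transcript and less of that transcript per cell cannot be told apart.

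In the Hippo pathway, MST kinases bound to the SAV1 protein phosphorylate the LATS kinases, which merlin, the product of NF2, helps to bring to the plasma membrane. Active LATS1 and LATS2 phosphorylate YAP and TAZ, which are then held in the cytoplasm by 14-3-3 proteins or degraded, whereas unphosphorylated YAP and TAZ enter the nucleus and bind TEAD factors at genes of growth, adhesion and matrix. Much of this control acts on the proteins and is not seen in mRNA. MDA-MB-231 cells are known for a truncating mutation in NF2 and for nuclear YAP and TAZ.

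With PDBAG1, WWTR1, SAV1, LATS2 and YAP1 transcripts were higher and TEAD4 and TEAD2 transcripts lower, so that 6 of the 10 genes passed an adjusted p under 0.05 in limma, 4 upwards and 2 downwards. Over all 12582 genes tested, 37.6% passed the same threshold, 21.7% upwards and 15.9% downwards. The groups of 3 libraries did not overlap for 6 of the 10 genes, against 47.4% of all genes tested. None of the 10 reached the limit of 1.5-fold at an adjusted p under 0.05, which 3.34% of all genes did. The median log2 fold change, on the scale of log2(TPM + 1) that understates changes of low genes, was 0.12 for the 10 genes and 0.03 for all genes tested. The median of the 10 genes rested in part on single libraries, at 0.17 without vehicle replicate 1 (0.05 for all genes), 0.07 without vehicle replicate 2 (0.02) and 0.04 without PDBAG1 replicate 3 (0.01), and it was 0.08 under median-of-ratios scaling (-0.01), 0.06 after quantile normalization (-0.02) and 0.02 after removal of length and GC trends (-0.02). The share of all calls without a fold limit that were upward, 57.8%, depended on scaling and was 47.2% with median-of-ratios scaling, 46.7% after quantile normalization and 43.9% once trends with transcript length and GC content were removed.

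**Figure D1:**
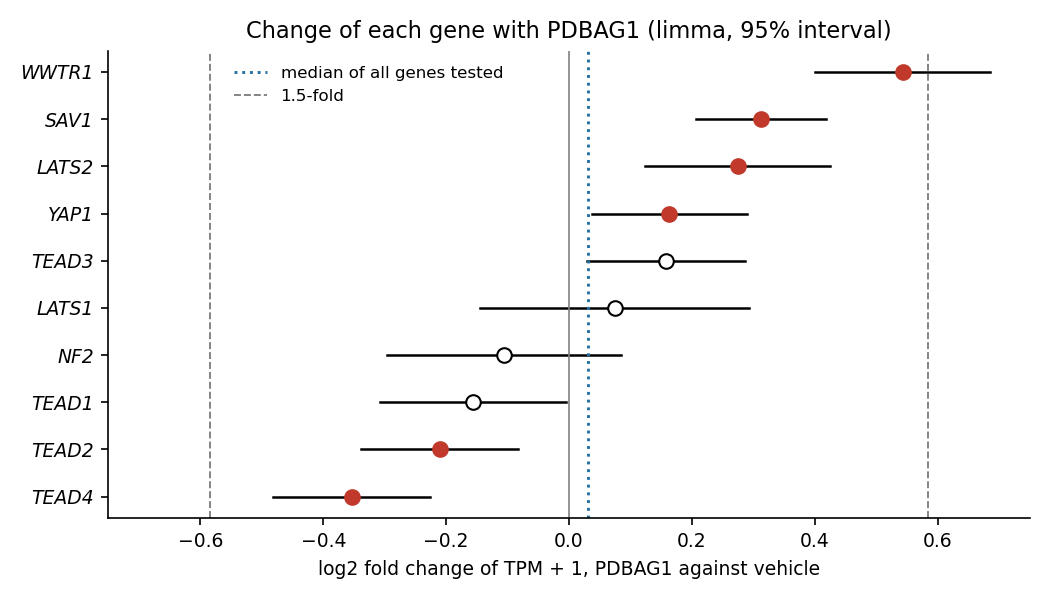
Log2 fold change of TPM + 1 with PDBAG1 against vehicle for each of the 10 genes, as limma estimates (points) with 95% intervals (lines), filled where the adjusted p was under 0.05. WWTR1 lies furthest to the right at 0.54 and TEAD4 furthest to the left at -0.35, and every point lies inside the dashed lines at 1.5-fold.

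Sequences before the transcription start are shown for YAP1, LATS2 and SAV1, which rose and whose windows hold no exon base of the gene itself. RefSeq start-site windows (GRCh38.p14) were matched for 8 of the 10 genes, all except TEAD1 and TEAD4, and the 250 bases before each start were searched on both strands for the TEAD motif, whose letters are GGAATG, with CATTCC as its form on the opposite strand. They were also searched for the core letters of a hypoxia response element, which are ACGTG and, with another first base, GCGTG. On the opposite strand these read CACGT and, for the second form, CACGC. Matches are in capitals, and in YAP1 the ACGTG and CACGT matches overlap in CACGTG. Each is given 5′ to 3′ on the strand of its gene.
YAP1, chr11:102110197-102110446, plus strand: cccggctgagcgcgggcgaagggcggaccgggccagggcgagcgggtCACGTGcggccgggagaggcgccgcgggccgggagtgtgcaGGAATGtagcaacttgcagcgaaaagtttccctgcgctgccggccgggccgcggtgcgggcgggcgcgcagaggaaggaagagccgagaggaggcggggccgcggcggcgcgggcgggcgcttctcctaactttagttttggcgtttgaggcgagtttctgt
LATS2, chr13:21061587-21061836, minus strand: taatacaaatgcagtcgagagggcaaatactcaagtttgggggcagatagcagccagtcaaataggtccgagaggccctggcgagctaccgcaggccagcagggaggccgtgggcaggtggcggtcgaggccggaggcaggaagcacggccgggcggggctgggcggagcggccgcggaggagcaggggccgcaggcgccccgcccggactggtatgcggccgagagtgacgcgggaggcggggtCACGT
SAV1, chr14:50668307-50668556, minus strand: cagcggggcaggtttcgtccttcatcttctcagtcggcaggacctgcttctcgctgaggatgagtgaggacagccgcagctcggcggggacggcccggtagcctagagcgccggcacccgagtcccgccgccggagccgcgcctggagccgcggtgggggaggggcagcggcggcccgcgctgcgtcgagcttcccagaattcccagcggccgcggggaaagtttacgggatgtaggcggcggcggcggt
Not all 8 windows lie upstream of the annotated gene. Those of WWTR1 and LATS1 lie inside the gene spans given below, and those of WWTR1 and TEAD2 hold 55 and 41 exonic bases of the gene itself. Of the 8 windows, 1 held the TEAD motif letters, that of YAP1 at position -162 from the start. The share was 11.9% of all 27305 RefSeq windows of this length and 9.43% of those of genes tested. The hypoxia element letters stood in 3 of the 8, those of YAP1, LATS2 and NF2, although 77 bases of the NF2 window lie in an NF2 exon of GENCODE v44 and the match, at position -37, is among them. This compares with 43.1% of all windows and 57.5% of those of genes tested. SAV1 had neither motif in this window. These matches describe letters only, and no factor binding was measured.

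The co-activators YAP and TAZ carry no DNA-binding domain and act through TEADs. WWTR1 (chromosome 3, 149517235 to 149736714, minus strand, GRCh38, GENCODE v44) was at 42.5, 39.3 and 36.5 TPM in the vehicle libraries and at 53.2, 59.5 and 61.1 TPM in the PDBAG1 libraries. The lowest treated library thus lay above the highest control. The group means were 39.4 ± 3.00 and 57.9 ± 4.15 TPM (SD, n = 3 each). WWTR1 rose by 0.54 on the log2 scale (standard error 0.07, 95% interval 0.40 to 0.69, limma adjusted p = 3.02e-05). This was the largest change among the 10 genes. It fell just short of the limit of 1.5-fold, or 0.58 on the log2 scale, but was past it at 0.60 both without vehicle replicate 1 and without PDBAG1 replicate 1.

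YAP1 (chromosome 11, 102110447 to 102233424, plus strand) was at 84.8, 79.7 and 76.8 TPM with vehicle and at 83.1, 90.7 and 97.1 TPM with PDBAG1. Its groups overlapped, since PDBAG1 replicate 1 was below vehicle replicate 1. The log2 fold change was 0.16 (standard error 0.06, limma adjusted p = 0.0422), and the call was lost in 8 of the 14 alternative settings, including a log2 fold change of 0.13 without vehicle replicate 3, 0.16 without vehicle replicate 2, 0.16 without PDBAG1 replicate 2 and 0.11 without PDBAG1 replicate 3. In each library YAP1 was the more abundant of the pair. The share of WWTR1 in the summed TPM of both was 33.4%, 33.0% and 32.2% with vehicle and 39.1%, 39.6% and 38.6% with PDBAG1. These shares did not overlap and differed by 6.21 percentage points (two-sided exact permutation test over the 6 libraries, p = 0.1, the smallest that 3 against 3 libraries allow, and 0.18 after Benjamini-Hochberg adjustment over 9 such comparisons of shares and sums). The summed TPM of YAP1 and WWTR1 was 120 ± 7.04 in the vehicle group and 148 ± 11.1 in the PDBAG1 group (SD, n = 3 each), also without overlap (exact permutation p = 0.1).

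**Figure D2:**
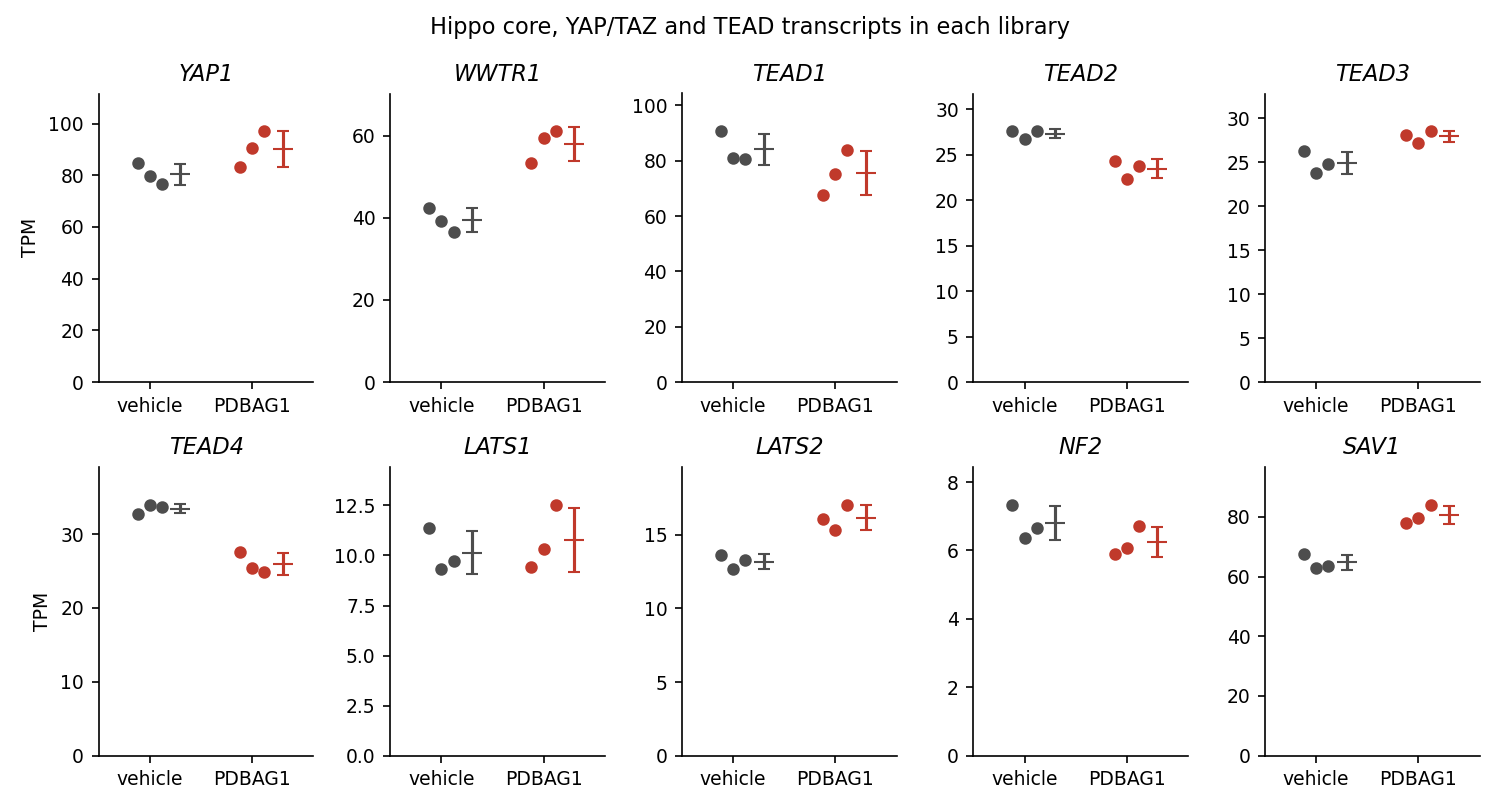
TPM of the 10 genes in every library (points; linear axes from 0), with the mean and SD of each group of 3 libraries beside them. WWTR1, SAV1, LATS2 and TEAD3 are higher in every PDBAG1 library than in any vehicle library, TEAD2 and TEAD4 are lower, and the groups of YAP1, TEAD1, LATS1 and NF2 overlap.

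The TEAD factors share a DNA-binding TEA domain and supply the sites at which YAP, TAZ and VGLL cofactors act. TEAD4 (chromosome 12, 2959330 to 3040676, plus strand) was at 32.7, 33.98 and 33.6 TPM in the vehicle libraries and at 27.6, 25.5 and 24.8 TPM in the PDBAG1 libraries. It fell by 0.35 on the log2 scale (standard error 0.06, 95% interval -0.48 to -0.23, limma adjusted p = 0.000405), with no overlap between groups. TEAD2 (chromosome 19, 49340595 to 49362457, minus strand) was at 27.6, 26.8 and 27.6 TPM with vehicle and at 24.4, 22.3 and 23.7 TPM with PDBAG1. These groups did not overlap either, and the log2 fold change was -0.21 (standard error 0.06, limma adjusted p = 0.0127). The call of TEAD2 was lost without vehicle replicate 3, at -0.20, and without PDBAG1 replicate 2, at -0.18.

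TEAD3 (chromosome 6, 35473597 to 35497079, minus strand) was at 26.2, 23.8 and 24.8 TPM with vehicle and at 28.02, 27.2 and 28.5 TPM with PDBAG1. All its treated libraries were above the controls, but the log2 fold change of 0.16 missed the threshold (95% interval 0.03 to 0.29, limma adjusted p = 0.0523). It was 0.19 and passed without vehicle replicate 1, and it was 0.04 after removal of length and GC trends. TEAD1 (chromosome 11, 12674421 to 12944737, plus strand) was at 90.6, 81.1 and 80.6 TPM with vehicle and at 67.6, 75.2 and 83.7 TPM with PDBAG1. The treated libraries were spread widely and PDBAG1 replicate 3 reached into the vehicle range, so that the log2 fold change of -0.16 was not called (95% interval -0.31 to -0.0049, limma adjusted p = 0.0979). Without PDBAG1 replicate 3 it was -0.23 and called, as it was under median-of-ratios scaling (-0.20) and after removal of length and GC trends (-0.25).

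Summed over the 4 factors, TEAD transcripts were at 170 ± 6.46 TPM in the vehicle group and 153 ± 6.98 TPM in the PDBAG1 group (SD, n = 3 each), without overlap (exact permutation p = 0.1, adjusted p = 0.18). TEAD1 made up 49.5% ± 1.47 of the sum in the vehicle group and 49.3% ± 3.21 in the PDBAG1 group (SD, n = 3 each; exact permutation p = 1). The share of TEAD3 was 14.7% ± 0.278 in the vehicle group and 18.3% ± 0.644 in the PDBAG1 group (SD, n = 3 each), with no overlap between libraries (exact permutation p = 0.1). The shares of TEAD2 and TEAD4 overlapped between the groups (exact permutation p = 0.3 and 0.2), with means of 16.1% and 19.7% in the vehicle group and 15.4% and 17.0% in the PDBAG1 group. TEAD4 was thus the second most abundant TEAD transcript with vehicle and TEAD3 the least, whereas with PDBAG1 the mean of TEAD3, 27.9 TPM, stood above that of TEAD4, 26.0 TPM, with overlapping libraries.

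**Figure D3:**
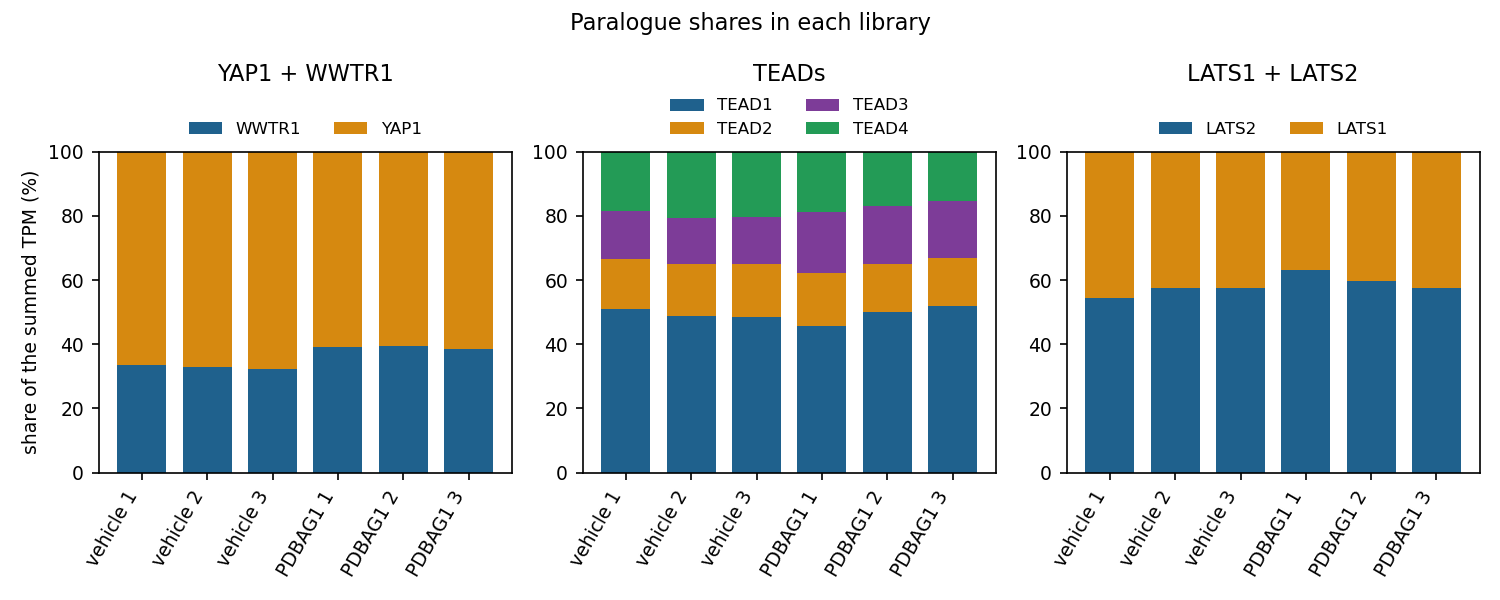
Share of each paralogue in the summed TPM of its family (percent, stacked to 100) in each of the 6 libraries, for YAP1 and WWTR1, for the 4 TEADs, and for LATS1 and LATS2. WWTR1 takes 32.2% to 33.4% of its pair in the vehicle libraries and 38.6% to 39.6% in the PDBAG1 libraries, and TEAD1 takes about the same share in both groups.

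LATS1 and LATS2 are the kinases that phosphorylate YAP and TAZ. LATS2 (chromosome 13, 20973036 to 21061586, minus strand) was at 13.6, 12.7 and 13.3 TPM in the vehicle libraries and at 16.1, 15.3 and 17.1 TPM in the PDBAG1 libraries. All treated libraries were above all controls, and the log2 fold change was 0.27 (standard error 0.07, 95% interval 0.12 to 0.43, limma adjusted p = 0.00745). It was 0.16, still called, with length and GC trends removed. LATS1 (chromosome 6, 149658153 to 149718105, minus strand) was at 11.4, 9.35 and 9.74 TPM with vehicle and at 9.44, 10.3 and 12.5 TPM with PDBAG1. The groups overlapped and the log2 fold change of 0.07 was not distinguishable from 0 (95% interval -0.14 to 0.29, limma adjusted p = 0.598). It was -0.03 without PDBAG1 replicate 3, the highest library, and -0.0043 after quantile normalization. The share of LATS2 in the sum of both kinases was 56.6% ± 1.76 in the vehicle group and 60.1% ± 2.72 in the PDBAG1 group (SD, n = 3 each), which overlapped (exact permutation p = 0.2). The sum for the kinases, 23.3 ± 1.51 TPM in the vehicle group and 26.9 ± 2.31 TPM in the PDBAG1 group (SD, n = 3 each), did not overlap (exact permutation p = 0.1).

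SAV1, whose product holds the MST kinases in the core complex (chromosome 14, 50632058 to 50668306, minus strand), was at 67.5, 63.0 and 63.7 TPM with vehicle and at 78.1, 79.6 and 84.1 TPM with PDBAG1. The groups were separate, with means of 64.7 ± 2.44 and 80.6 ± 3.12 TPM (SD, n = 3 each), and SAV1 rose by 0.31 on the log2 scale (standard error 0.05, 95% interval 0.21 to 0.42, limma adjusted p = 0.000255). SAV1 shares 1789 exonic bases with ATL1, a gene on the opposite strand, and since strand-specific counting is not stated, reads of both genes may not be separable. ATL1 itself was at 14.1 ± 0.159 TPM in the vehicle group and 18.3 ± 0.804 TPM in the PDBAG1 group (SD, n = 3 each) and rose by 0.35 on the log2 scale (limma adjusted p = 0.000926). The part of ATL1 in the SAV1 values was not tested. WWTR1 likewise shares 756 exonic bases with the antisense RNA gene WWTR1-AS1, YAP1 and LATS1 share exonic bases with unnamed antisense RNA genes (628 and 11 bases in YAP1, 257 bases in LATS1), none of them analysed here, and TEAD2 shares 319 bases with CD37, whose group means were 0.477 and 0.660 TPM.

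NF2 (chromosome 22, 29603556 to 29698598, plus strand) had the lowest level of the 10 genes, at 7.34, 6.37 and 6.66 TPM with vehicle and at 5.91, 6.08 and 6.73 TPM with PDBAG1. The groups overlapped, and the log2 fold change of -0.11 was not called (95% interval -0.30 to 0.08, limma adjusted p = 0.375). It was -0.06 without vehicle replicate 1 and -0.15 without PDBAG1 replicate 3, neither called. It was -0.21 and called after quantile normalization, and -0.26 and called after removal of length and GC trends.

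On the length-scaled TPM level, the vehicle libraries held TEAD1 at 84.1 ± 5.68 and YAP1 at 80.4 ± 4.05 (SD, n = 3 each) at the top, with overlapping libraries, followed in order by SAV1, WWTR1, TEAD4, TEAD2, TEAD3, LATS2, LATS1 and NF2, each separate from the next. In the PDBAG1 libraries YAP1, SAV1 and TEAD1 led, with means of 90.3, 80.6 and 75.5 TPM, and neighbours in this order overlapped, as did TEAD3 and TEAD4. The order of LATS2, LATS1 and NF2 at the bottom was the same in both groups. Among all genes tested, YAP1 stood at percentile 82.8 of mean TPM with vehicle and 84.6 with PDBAG1. WWTR1 stood at percentile 67.7 with vehicle and 76.3 with PDBAG1, TEAD4 at 63.0 and 55.1, and NF2 at 23.5 and 20.6.

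Most of the 10 genes varied together between libraries of 1 treatment. Vehicle replicate 1 had the highest vehicle value and PDBAG1 replicate 3 the highest PDBAG1 value for the same 8 genes, YAP1, WWTR1, TEAD1, TEAD3, LATS1, LATS2, NF2 and SAV1, and TEAD4 was lowest in both. The canonical transcripts of the 10 genes had a median length of 5219 bases (1710 for TEAD4 to 9417 for TEAD1), compared with 3280 bases for all genes tested that had a length. Of the 8 genes named above, TEAD3 at 2986 bases and SAV1 at 3094 bases were shorter than 3280 bases, and the others were longer. The part of length in the shared variation was not tested. Over the 3302 genes tested with transcripts of 5000 bases or more, the median deviation from the group mean was 0.08 in vehicle replicate 1, 0.08 in PDBAG1 replicate 3 and -0.08 in PDBAG1 replicate 1 on the log2 scale, and over the 1788 genes under 1500 bases it was -0.02, -0.02 and 0.03. After removal of each library's trends with length and GC content, a setting chosen after the data were seen, 4 genes were called upwards (WWTR1, SAV1, LATS2 and YAP1) and 4 downwards (TEAD4, TEAD2, TEAD1 and NF2). Of all 12433 genes in this setting, 2458 were called upwards and 3137 downwards. WWTR1, SAV1, LATS2 and TEAD4 were called in the same direction in all 14 alternative settings.

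**Figure D4:**
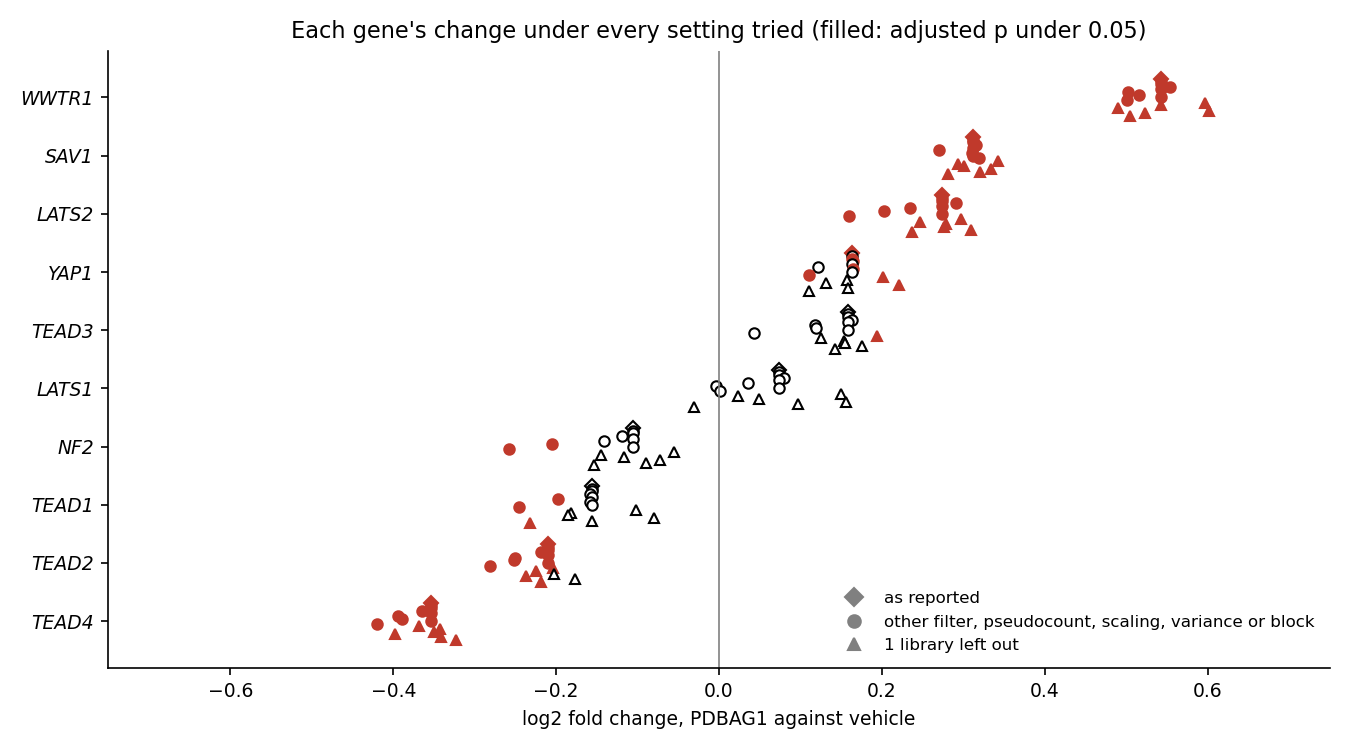
Log2 fold change of each gene as reported (diamonds), with another filter, pseudocount, scaling, variance model or replicate block, or with length and GC trends removed (circles), and with 1 library left out (triangles), filled where the adjusted p was under 0.05. All symbols of WWTR1, SAV1, LATS2 and TEAD4 are filled, those of YAP1, TEAD1, TEAD2, TEAD3 and NF2 are mixed, and those of LATS1 lie on both sides of 0 and are all open.

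Of 77 further genes listed for the pathway, 76 were in the files and 66 could be tested. At an adjusted p under 0.05, 15 were higher and 8 lower with PDBAG1, 34.8% in all against 37.6% of all genes tested, and their median log2 fold change was 0.05 against 0.03. The 15 include TNIK, which passed the filter through its PDBAG1 libraries. Under the filter of 1 TPM in every library, without TNIK, 14 of 65 were higher and 8 lower. Of all 12105 genes in that setting, 2719 were higher and 2015 lower. The median of these pathway genes was 0.08 without vehicle replicate 1 (0.05 for all genes), 0.03 without vehicle replicate 2 (0.02) and 0.01 without PDBAG1 replicate 3 (0.01). The number that were lower depended on scaling and was 13 under median-of-ratios scaling and 15 after removal of length and GC trends. Over all genes tested, the number lower also rose, from 2000 as reported to 2741 and 3137 in these settings. The largest change was that of VGLL4, a cofactor that competes with YAP and TAZ for TEADs, at 21.9, 19.7 and 17.7 TPM with vehicle and at 46.1, 49.1 and 51.6 TPM with PDBAG1. Each treated library was over 2-fold above each control, and the log2 fold change was 1.27 (standard error 0.07, limma adjusted p = 2.36e-08). VGLL3, also chosen after its values were seen, was at 1.52 and 1.66 TPM and was not called.

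Among 10 tested kinases that act on LATS beside the MST kinases, 5 were higher, against 21.7% of all genes tested, and the other 5 did not pass the test. The 5 include TNIK, which passed the filter through its PDBAG1 libraries, so this count is a description only. MAP4K4, whose group means were 67.4 ± 3.80 and 116 ± 5.78 TPM (SD, n = 3 each), rose by 0.77 on the log2 scale (limma adjusted p = 1.42e-07). TNIK was at a low level, with means of 0.940 ± 0.256 and 1.69 ± 0.0896 TPM. Of its vehicle libraries only replicate 1, at 1.21 TPM, reached 1 TPM, so the gene passed the filter through its PDBAG1 libraries. It was not tested under the filter of 1 TPM in every library. Its log2 fold change of 0.48, counted among the 5 above, is therefore given as a description only. The MST kinase genes STK3 and STK4 and MOB1A were not called, with log2 fold changes of -0.10, 0.07 and -0.06, and MOB1B was at 0.25 (limma adjusted p = 0.0469) with overlapping groups. These genes are the direct partners of SAV1 and the LATS kinases, and were chosen after their values were seen. In the STRIPAK complex, which dephosphorylates MST kinases, 3 of 11 genes were higher and 1 lower, 36.4% in all against 37.6% of all genes tested. STRIP2 had a log2 fold change of 0.38 and STRN of 0.31. The call of STRN was lost without vehicle replicate 2 and without vehicle replicate 3, and its log2 fold change ranged from 0.21 to 0.38 over all 14 alternatives.

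Of the KIBRA and FERM adaptors upstream of LATS, 2 of 4 fell, against 15.9% of all genes tested. WWC1, which encodes KIBRA, fell from 45.1 ± 4.20 to 35.5 ± 1.99 TPM and FRMD6 from 157 ± 7.74 to 135 ± 7.30 TPM (SD, n = 3 each), with log2 fold changes of -0.33 and -0.22. Of the polarity proteins and FAT and Dachsous cadherins, 1 of 10 was called, against 37.6% of all genes tested. It was PALS1, listed as MPP5, which fell from 59.9 ± 2.81 to 44.9 ± 4.30 TPM (SD, n = 3 each). The 4 RASSF genes tested had log2 fold changes between -0.09 and 0.22, with no adjusted p under the threshold.

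In the group of angiomotins, PTPN14 and LIM proteins, 2 of 6 genes fell and 1 rose, 50.0% in all against 37.6% of all genes tested. AJUBA, a LIM protein that binds and inhibits LATS kinases, was at 120, 112 and 113 TPM with vehicle and at 72.9, 72.8 and 75.8 TPM with PDBAG1. AMOTL2, an angiomotin that binds YAP, was at 70.5, 66.5 and 65.7 TPM with vehicle and at 43.3, 44.1 and 46.8 TPM with PDBAG1. Neither gene overlapped between groups, and the log2 fold changes were -0.64 and -0.58 (limma adjusted p = 2.11e-07 and 1.62e-06). Downstream of LATS, CSNK1E and CSNK1D, casein kinases that prime YAP and TAZ for degradation, had log2 fold changes of 0.29 and 0.19, of which CSNK1D was 0.07 and not called with length and GC trends removed. Of the 11 genes for degradation and retention of YAP and TAZ, 3 were higher and 2 lower, 45.5% in all against 37.6% of all genes tested. PJA2, a ubiquitin ligase that acts on MOB proteins, was the 1 gene called of 4 ligases that act on LATS or MOB proteins, against 37.6% of all genes tested. Its mean was 76.7 ± 3.78 TPM in the vehicle group and 102 ± 7.94 TPM in the PDBAG1 group (SD, n = 3 each).

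**Figure D5:**
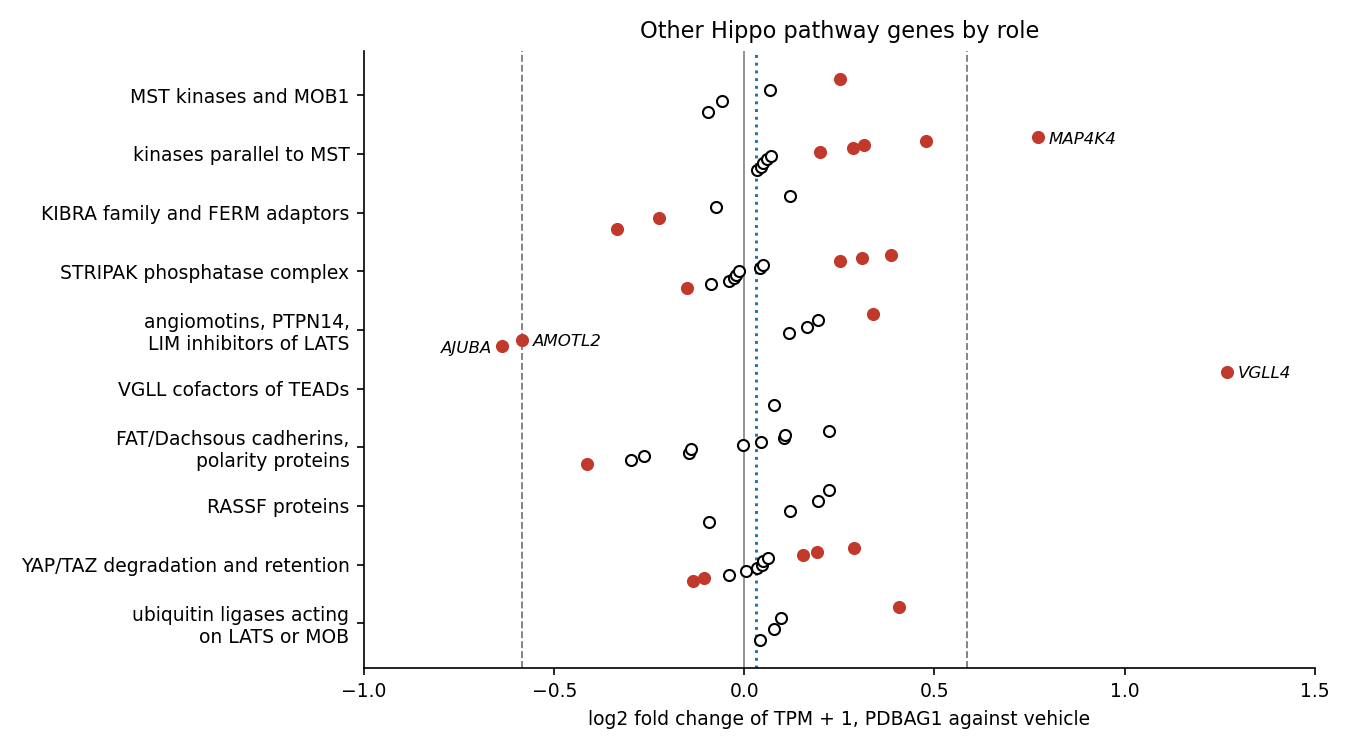
Log2 fold change of TPM + 1 with PDBAG1 for the 66 other Hippo pathway genes tested (1 point per gene, by role), filled where the limma adjusted p was under 0.05, with dashed lines at 1.5-fold and a dotted line at the median of all genes tested. VGLL4 and MAP4K4 lie beyond the upper line and AJUBA beyond the lower one, AMOTL2 lies at the lower line, and most other points are within 0.50 of 0.

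LATS2 is itself a known transcriptional target of YAP and TEAD. In a list of 24 such targets, all tested, 13 were lower with PDBAG1, against 15.9% of all genes tested. The 2 that were higher, against 21.7% of all genes tested, were LATS2 and MYOF. In all, 62.5% of the list was called, against 37.6% of all genes tested. The list was chosen with earlier results of these data known, so these counts are a description only. The median log2 fold change of the list was -0.21, with CCN2 at -0.98, ANKRD1 at -1.07, THBS1 at -1.24 and MYOF at 0.43, and AMOTL2, AJUBA and PTPN14 stand in both this list and that of the other pathway genes.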

How the data were processed

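Gene expression in 3 vehicle and 3 PDBAG1 libraries of MDA-MB-231 cells was analysed, with groups and replicate numbers taken from the sample titles. According to the methods, mRNA libraries were sequenced on the BGISEQ-500 platform, clean reads were mapped with HISAT2 to GRCh38.p13 and values were normalised to FPKM, whereas the deposited values are TPM, given by the authors with 2 decimals. The submitters' processing notes name GRCh38.p12, HISAT2 2.0.4, Bowtie2 2.2.5 and RSEM 1.2.12. The annotation release, the use of strand and the step to TPM are not given in the sources used here. TPM keeps no depth, so precision rests on the 3 libraries per group, and count tests were not run.

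Genes with at least 1 TPM in 3 or more libraries (12582 of 17631) were tested on log2(TPM + 1) by the moderated linear model of limma 3.58.1 under R 4.3.3 (variance trend included), with Benjamini-Hochberg adjustment over all of them. All 10 Hippo genes passed this filter. Calls used an adjusted p under 0.05, without or with the study's limit of 1.5-fold. Paralogue shares and sums were compared by exact permutation, where 0.1 is the smallest two-sided p. On simulated data for this comparison (12582 genes), 99 of 100 genes changed 2-fold and 67 of 100 changed 1.3-fold were recovered, with 11 unchanged genes called. Only these genes were changed in the simulation, and all were drawn from genes above a set mean level. The rates therefore do not cover low genes or data in which 37.6% of genes are called. The alternatives were no filter, a filter of 1 TPM in every library, a pseudocount of 0.1, a replicate block, median-of-ratios scaling, quantile normalization, no variance trend, each library left out, and, for all genes, a limit of 2-fold. Removal of length and GC trends (splines over 12433 genes) was added after the data were seen.

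The members and gene lists were chosen with earlier results of these data known. Besides the 10 genes, the text names up to 2 called genes without overlap per role of the other pathway genes, by size of change, the 3 largest falls and up to 3 rises among YAP/TEAD targets, and cell type markers. VGLL3, STK3, STK4, MOB1A and MOB1B, outside this rule, were added after their values were seen. Gene positions and exon overlaps are those of GENCODE v44 (GRCh38), matched by Ensembl identifier, and start-site sequences are those of RefSeq (GRCh38.p14). DCN, CD3E and VGLL1 were not analysed here.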

Additional observations from a re-analysis of the deposited data

How the results depend on the processing

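The calls of WWTR1, SAV1, LATS2 and TEAD4 held in direction and threshold in all 14 alternatives. YAP1 was no longer called without the filter (log2 fold change 0.16), with a replicate block (0.16), with median-of-ratios scaling (0.12) or without the variance trend (0.16), and ranged from 0.11 to 0.22 with 1 library left out. TEAD1 became a call under median-of-ratios scaling (-0.20) and after removal of length and GC trends (-0.25), and ranged from -0.23 to -0.080 with 1 library left out. With 1 library left out, TEAD2 ranged from -0.24 to -0.18, TEAD3 from 0.13 to 0.19 and LATS1 from -0.031 to 0.16. LATS1 was -0.0043 after quantile normalization. NF2 became a call at -0.21 after quantile normalization and at -0.26 after removal of length and GC trends, and ranged from -0.15 to -0.06, not called, with 1 library left out. The median of the other pathway genes was -0.0067 with these trends removed (-0.02 for all genes). It ranged from 0.01 to 0.08 with 1 library left out (0.01 to 0.05 for all genes). The 420 genes past 1.5-fold became 80 at 2-fold. The causes were not tested. The number of Hippo genes called was 4 to 7 with 1 library left out and 5 to 8 in the other settings. Over all genes tested it was 3520 to 4682 and 3951 to 5595.

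With the replicate block, 5 of the 10 genes and 3951 of all genes were called. Whether libraries of the same number belong together is not stated in the sources used here. Deviations of same-numbered libraries correlated at -0.21, 0.01 and -0.08, and 1 of the 6 libraries correlated best with its own number. With 3 libraries per group, these values cannot show whether same-numbered libraries shared a culture or batch. TPM without depth limits what can be said of genes such as NF2 and LATS1, where counting error is unknown.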
